A study of Mus musculus with 32 samples.

Results

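The growth factor receptors of the myeloid lineage were followed while transferred mouse monocytes became macrophages of the gut wall. The set was a fixed list of 7 genes, looked up by symbol in both deposited gene tables. It held 1 ligand, Csf1, and 6 receptors, Csf1r, Csf2ra, Csf2rb, Csf3r, Flt3 and Kit. All 7 were found among the 24148 genes that the 2 tables share. Recipients were C57BL/6J bone marrow chimeras carrying the diphtheria toxin receptor under the Itgax (CD11c) promoter (CD11c-DTR), whose CD11c-expressing cells were removed with repeated diphtheria toxin before and after the transfer of monocytes that carry GFP from the Cx3cr1 locus. The graft (n = 3 libraries, no toxin) was sorted as CD11b+ CD115+ Ly6C+ cells with intermediate GFP and without CD117. Its labels name blood as the organ, whereas the protocol describes marrow. Macrophages, sorted per the labels as CD45+ CD11b+ CD64+ MHCII+ cells lacking Ly6C and per the study's text by the donor's CD45 allele and GFP, were taken from the colon on days 4 (n = 3), 8 (n = 3) and 12 (n = 4) and from the ileum on days 4, 8 and 12 (n = 4 each). A second set held 6 libraries of macrophages from the colon of toxin-treated Cx3cr1-DTR recipients, taken on day 14, and was deposited in a separate table. The study lists 4 repeats for this set. All 6 libraries were used here, and which of them the study used is not known. The ages of the mice and the number of animals behind each library are not given in the labels, so the p-values measure the spread between these libraries. Since CD115 is the protein of Csf1r and CD117 that of Kit, the graft had been chosen for the first and against the second.

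Hematopoietic growth factor receptors tell a myeloid cell whether to survive, divide or mature. CSF1R is a receptor tyrosine kinase on which most tissue macrophages depend, and its ligands are CSF1 and IL-34. FLT3 and KIT are related kinases of early progenitors, with FLT3 also kept by cells of the dendritic lineage and KIT by mast cells, interstitial cells of Cajal and secretory cells of the colonic crypt. The receptor for GM-CSF pairs a ligand-binding chain, CSF2RA, with the common beta chain, CSF2RB, which also serves interleukin 3 and interleukin 5. CSF3R binds G-CSF and is best known from the neutrophil lineage. In the gut, monocytes from blood replace resident macrophages throughout life, and CSF1R is carried at both ends of that path.

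Between 591817 and 5228664 reads fell on genes in the 25 CD11c-DTR libraries (median 2447862) and between 1223772 and 4218027 in the 6 Cx3cr1-DTR libraries. Levels are given as normalized reads, the reads of a gene scaled to a library total of 10000000 reads. A count of 0 allows up to 3 reads, which equals 3.51 to 27.6 normalized reads across the CD11c-DTR libraries, for counting error only. One further colon day 8 library (replicate 1) was not part of the values the study used, stood apart from the other 3, and is left out except where named. Marker genes of other cells moved with the groups. The sum of 12 genes of intestinal epithelium, on a scale of 10000000 reads on genes, lay between 52.2 and 85.8 in the graft, between 174300 and 259900 in the 10 colonic libraries, between 32170 and 226800 in the 12 ileal libraries and between 193800 and 251700 in the Cx3cr1-DTR libraries, with at least 11 of 12 genes detected in each engrafted library. The sum of 10 genes listed here as pan-leukocyte was 127200 to 139600 in the graft, 3069 to 12340 in the colon, 8746 to 59870 in the ileum and 2458 to 6480 in the Cx3cr1-DTR libraries. Markers of colonic enterocytes in ileum day 4 replicates 2 and 3, both of the first experiment, stood at 41405 and 42919, against 4384 and 4562 in replicates 1 and 4 and 11880 to 33440 in the colon. Ileum day 4 values are therefore also given without those 2 libraries where that mattered. In bulk samples such as these, fewer cells of a type and less RNA per cell cannot be told apart. Per the study's methods, gut cells came from tissue digested with collagenase, longer for the colon than the ileum, and the graft from flushed marrow. Isolation and tissue therefore cannot be told apart either.

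Against the graft, 7 of 7 genes passed the test in the colon on day 4, 6 on day 8 and 6 on day 12. In the ileum it was 5, 5 and 4 of 7. Most genes of these libraries differed from the graft, and among the 11842 genes tested the share called in either direction was 60.4%, 59.1% and 62.6% in the colon and 56.7%, 53.9% and 55.9% in the ileum. Csf1 and Kit made up the 2 genes that were higher in each of the 6 comparisons, where 35.9%, 35.2% and 37.7% of all genes were higher in the colon and 36.2%, 34.3% and 35.9% in the ileum by day. The rest were lower, where 24.5%, 23.9% and 24.9% of all genes were lower in the colon and 20.5%, 19.5% and 20.0% in the ileum. A gene was tested where 3 or more libraries reached 50 normalized reads. Flt3 passed this filter only through the graft and Kit only through the engrafted libraries, so these 2 had to differ. Csf1, at 11.2 to 31.0 in the graft, also passed only through engrafted libraries, so its rise was favoured in advance. Calls rest on the quasi-likelihood test of edgeR at an adjusted p under 0.05. The median log2 change of all genes lay between 0.199 and 0.243. Scaling to library totals in place of TMM lowered it, to -0.125 in the colon and -0.200 in the ileum on day 4. All genes then split into 3527 higher and 3763 lower in the colon, instead of 4252 and 2897, and into 3447 and 3814 in the ileum, instead of 4287 and 2431.

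**Figure D1:**
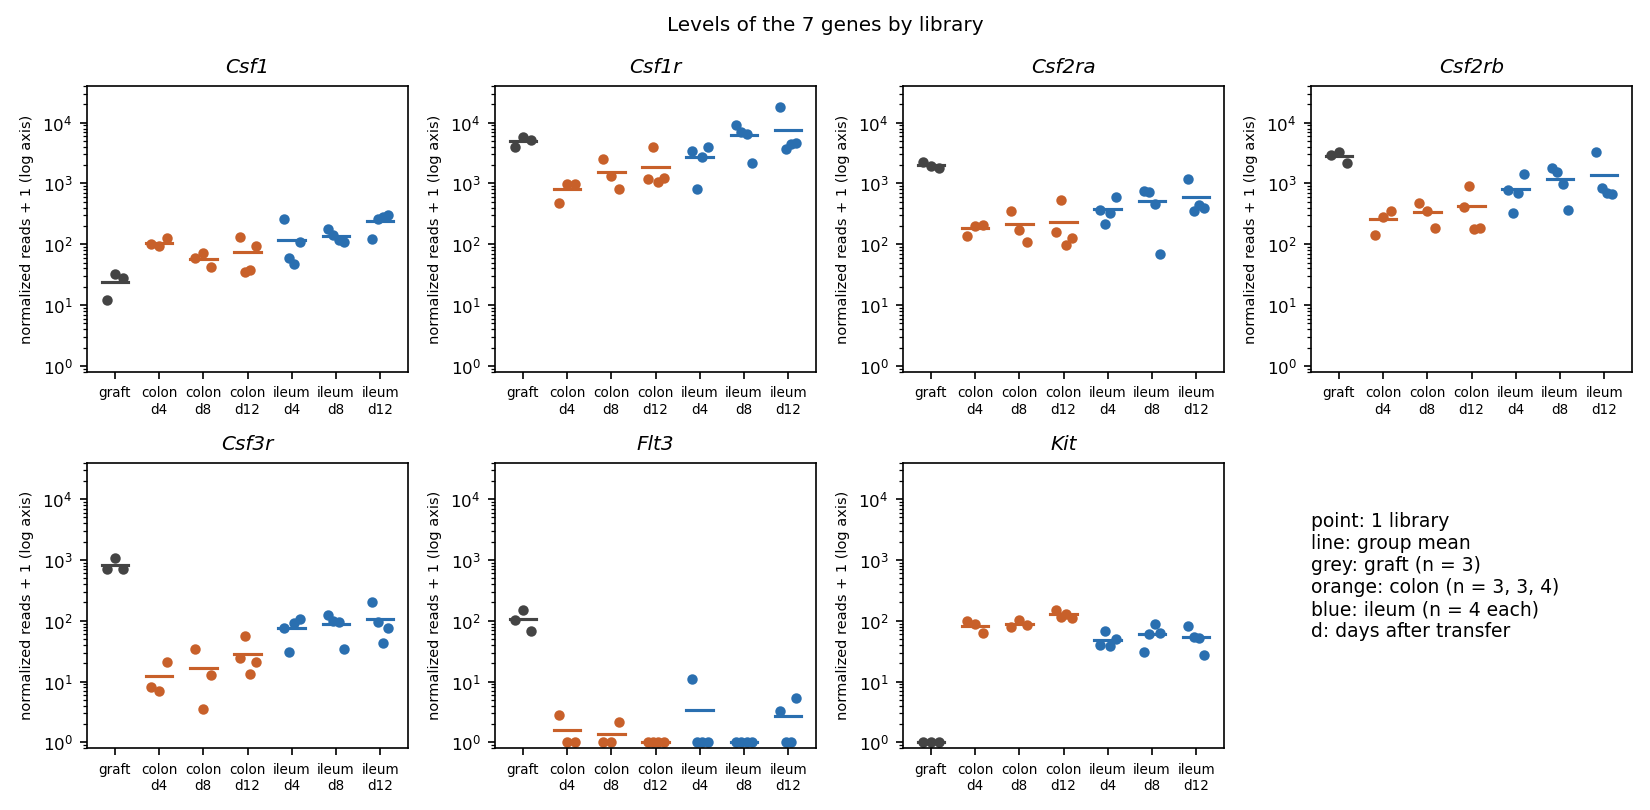
Normalized reads plus 1 on a log axis for each of the 7 genes; each point is 1 library, each line a group mean, with the graft in grey, colon in orange and ileum in blue. Csf2ra, Csf3r and Flt3 are highest in the 3 graft libraries, Kit has 0 reads in all 3, and Csf1r in the ileum spreads around the level of the graft.

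Csf1r was lower in the colon than in the graft on day 4, and in the ileum its change passed the test on no day. It lies on chromosome 18 (61265226 to 61290793, plus strand, mm9). The graft libraries held 4000, 5784 and 5207 normalized reads. In the colon the values were 475, 996 and 970 on day 4, then 2529, 1331 and 815 on day 8, and 1164, 3942, 1048 and 1207 on day 12. All 10 colonic libraries lay below the lowest graft library. It fell by 2.26 on the log2 scale on day 4 (SE 0.67, adjusted p = 0.00564, lower in 3 of 3 libraries), while the log2 changes on day 8 (-1.45, SE 0.65, adjusted p = 0.0594) and day 12 (-1.10, SE 0.59, adjusted p = 0.109) did not pass. Fitted with the experiment, inferred from the dates in the titles, as a replicate block, they did, at -1.77 (adjusted p = 0.0187) and -1.43 (adjusted p = 0.0286). Colon day 8 replicate 1 held 12829 reads and, once included, turned the day 8 change to 0.365 (adjusted p = 0.713).

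In the ileum Csf1r stood at 3417, 803, 2728 and 4023 normalized reads on day 4, at 9147, 7096, 6472 and 2158 on day 8 and at 17974, 3725, 4371 and 4600 on day 12. Graft and ileal libraries overlapped on each day. The log2 changes of -0.43 (SE 0.60, adjusted p = 0.556), 0.81 (SE 0.61, adjusted p = 0.275) and 1.13 (SE 0.61, adjusted p = 0.123) did not pass. Day 12 replicate 1, at 17974, was the only one of its 4 libraries above the graft mean of 4997. Ordered by mean level, the groups ran from ileum day 12 (7667 ± 6881, SD) through ileum day 8, the graft, ileum day 4, colon day 12 and colon day 8 to colon day 4 (814 ± 294), and each group overlapped its neighbour.

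Counted against other leukocyte genes of the same library, Csf1r took a larger share after engraftment in both segments, the reverse of its direction per library total in the colon. The graft libraries held 45.8, 62.9 and 54.2 Csf1r reads per 1000 reads of the 10 pan-leukocyte genes, a scale taken up after the values had been seen. The colon held 247, 230 and 277 on day 4, 410, 400 and 420 on day 8 and 372, 542, 484 and 490 on day 12. The ileum held 228, 155, 238 and 199 on day 4, 432, 280, 462 and 416 on day 8 and 498, 262, 413 and 349 on day 12. Every engrafted library exceeded every graft library, by 6.93-fold in the colon (exact permutation test, two-sided, p = 0.0035, adjusted p = 0.0113 over 42 ratio tests) and 5.73-fold in the ileum (exact permutation p = 0.0022, adjusted p = 0.0113), and both p-values are the smallest these designs allow. The same held within each experiment. In experiment 1 the graft stood at 54.2, the colonic library at 372 and the 3 ileal ones at 155 to 262. In experiment 2 the graft stood at 45.8, 5 colonic libraries at 247 to 542 and 6 ileal ones at 199 to 498, and in experiment 3 at 62.9, 230 to 490 (4 colonic libraries) and 280 to 416 (3 ileal libraries).

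This share also rose with time. Day 4 libraries lay below all later libraries in the colon (230 to 277 against 372 to 542, 1.76-fold, exact permutation p = 0.00833, adjusted p = 0.0233) and in the ileum (155 to 238 against 262 to 498, 1.88-fold, exact permutation p = 0.00202, adjusted p = 0.0113). A difference between colon and ileum did not pass (230 to 542 against 155 to 498, 0.827-fold in the ileum, permutation p = 0.205). With 10 macrophage genes, among them complement C1q and Lyz2, as the denominator, the rise from the graft was 1.89-fold in the colon (exact permutation p = 0.0035) and 1.68-fold in the ileum (exact permutation p = 0.0088). Whether the RNA of the denominator genes per cell stayed level was not tested.

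**Figure D2:**
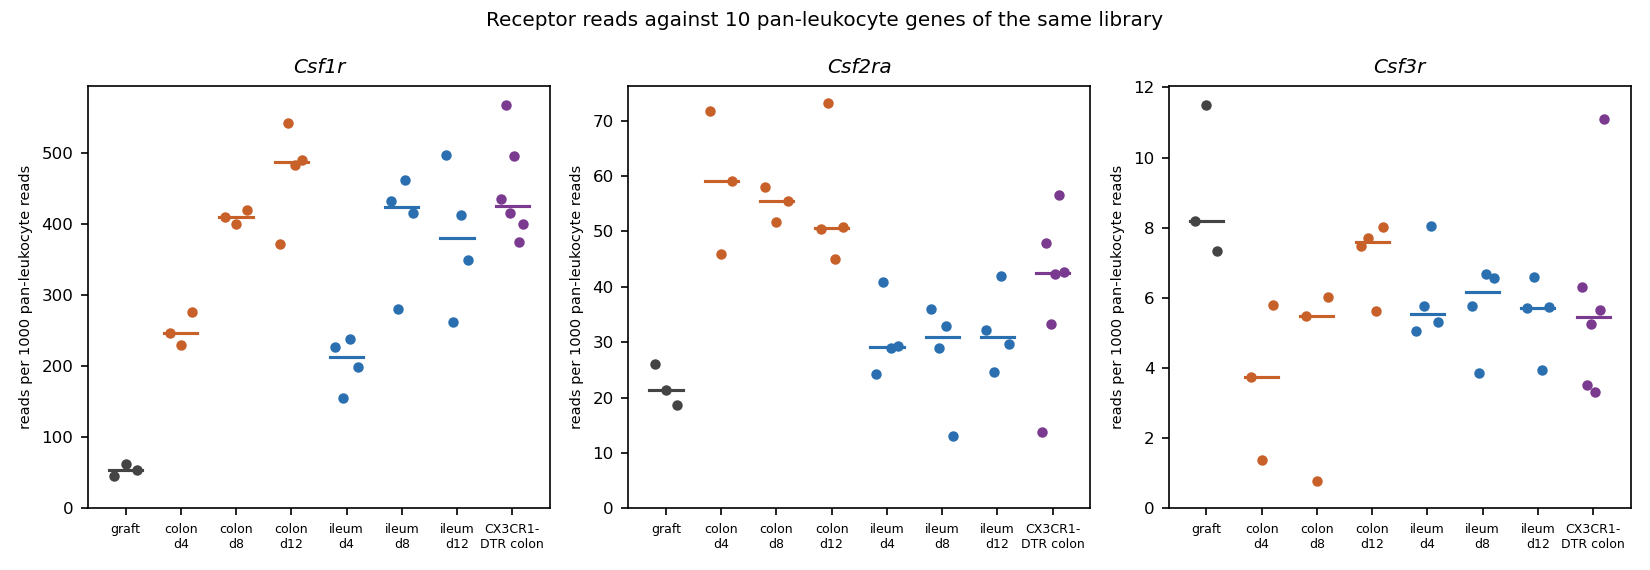
Reads of Csf1r, Csf2ra and Csf3r per 1000 reads of 10 pan-leukocyte genes in the same library, on linear axes from 0; each point is 1 library and each line a group median. Csf1r rises from 45.8 to 62.9 in the graft to at least 155 in every engrafted library, Csf2ra is higher in the colon (45.0 to 73.3) than in the ileum (13.1 to 42.0), and Csf3r in the Cx3cr1-DTR libraries (3.32 to 11.1) overlaps the graft (7.34 to 11.5).

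Csf1, the main ligand of CSF1R (chromosome 3, 107543966 to 107563387, minus strand), was low in the graft and higher after engraftment. The graft libraries held 11.2, 31.0 and 26.6 normalized reads. The colon held 98.6, 91.9 and 126 on day 4, 57.4, 70.5 and 41.0 on day 8 and 132, 34.3, 36.5 and 94.0 on day 12. The ileum held 258, 57.6, 46.1 and 107 on day 4, 176, 142, 117 and 109 on day 8 and 122, 263, 278 and 308 on day 12. Each of the 22 engrafted libraries stood above the highest graft library. The log2 rise was 2.48 (SE 0.56, adjusted p = 0.000589), 1.47 (SE 0.57, adjusted p = 0.0318) and 1.96 (SE 0.54, adjusted p = 0.003) in the colon by day, and 2.78, 3.06 and 3.82 in the ileum (SE 0.55 to 0.56, adjusted p at most 0.000174). The colon day 8 call was lost with the replicate block (1.37, adjusted p = 0.0573), with scaling to library totals (1.23, adjusted p = 0.0794) and without any 1 of 4 libraries, graft replicates 1 and 3 and colon day 8 replicates 2 and 3.

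Csf1 varied with markers of several other cell types. Over the 25 libraries the genes most like it, by Pearson's r of log2(normalized reads + 50), were Ehd2 (r = 0.931), Mxra8 (r = 0.926) and Foxf1 (r = 0.912), the last a mesenchymal transcription factor of the gut. Among the 22 engrafted libraries its r with summed markers was highest for T cells (0.869), endothelium (0.83), smooth muscle (0.799), B cells (0.761) and marrow progenitors (0.760). It was 0.559 for the pan-leukocyte genes, 0.546 for fibroblasts and 0.509 for macrophages, over points that share library depth and composition. All 6 fibroblast markers summed to 0 in each graft library and to 330 to 7772 in the engrafted CD11c-DTR libraries. The part of these cells in the rise of Csf1 was not tested. Il34, the other CSF1R ligand, had 0 reads in the graft and was at least 4.67-fold higher in colon day 12 and at least 14.1-fold higher in ileum day 12, taking 3 counts in each graft library as the floor. Its mean was 33.5 normalized reads in the colon and 101 in the ileum on day 12, and the log2 difference, colon over ileum, was -1.65 (SE 0.59, adjusted p = 0.0356).

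Csf2ra and Csf2rb, the 2 chains of the GM-CSF receptor, both fell in the colon on each day, and Csf2ra also fell in the ileum on days 4 and 8. Their promoters are shown because Spi1, which encodes PU.1, a regulator of myeloid genes, was among the genes most like Csf2rb, with that of Csf2ra beside it as the other chain of the receptor. The 250 bases before the annotated start are printed 5′ to 3′ on the gene's strand, from the NCBIM37 assembly (mm9), with the PU.1 core GAGGAA and its reverse TTCCTC in capitals. The windows are chr19:61304322-61304571 (minus strand) for Csf2ra and chr15:78156170-78156419 (plus strand) for Csf2rb, and neither overlaps an annotated exon.
Csf2ra: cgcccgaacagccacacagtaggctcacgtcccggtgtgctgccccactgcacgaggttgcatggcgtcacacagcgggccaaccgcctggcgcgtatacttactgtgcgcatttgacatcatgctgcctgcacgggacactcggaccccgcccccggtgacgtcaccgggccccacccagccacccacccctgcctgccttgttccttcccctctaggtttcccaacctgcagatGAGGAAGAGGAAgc
Csf2rb: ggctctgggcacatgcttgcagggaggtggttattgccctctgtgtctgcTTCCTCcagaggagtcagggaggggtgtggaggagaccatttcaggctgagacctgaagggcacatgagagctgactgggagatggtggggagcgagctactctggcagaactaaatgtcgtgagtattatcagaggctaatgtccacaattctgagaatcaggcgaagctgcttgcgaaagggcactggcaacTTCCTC
Each window held the core 2 times, beginning 14 and 8 bases before the start in Csf2ra and 200 and 6 bases before it in Csf2rb. Of 24343 gene starts, 22.9% had at least 1 such match in a window of this length. The window of Csf3r held it 1 time, beginning 86 bases before the start, and that of Kit 1 time, at 223 bases. Each of these windows overlaps an annotated exon of its own gene. The windows of Csf1, Csf1r and Flt3 held none, which says only that these letters are not there.

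Csf2ra (chromosome 19, 61300305 to 61304321) stood at 2285, 1961 and 1799 normalized reads in the graft. It fell to 138, 199 and 207 in the colon on day 4, 358, 172 and 108 on day 8 and 158, 532, 97.5 and 125 on day 12. In the ileum it stood at 363, 211, 332 and 592 on day 4, 762, 732, 462 and 68.0 on day 8 and 1164, 350, 445 and 392 on day 12. No engrafted library reached the graft. The log2 changes in the colon were -3.13 (SE 0.67, adjusted p = 0.000309), -3.03 (SE 0.66, adjusted p = 0.000422) and -2.84 (SE 0.59, adjusted p = 0.000221) by day. In the ileum the changes were -2.02 (SE 0.59, adjusted p = 0.00504), -1.53 (SE 0.57, adjusted p = 0.0272) and -1.27 (SE 0.57, adjusted p = 0.0597), the last passing with the replicate block (-1.52, adjusted p = 0.0162). The day 4 call in the ileum was lost without its 2 libraries of experiment 1 (-1.72, adjusted p = 0.0562), and the day 8 call without graft replicate 1, ileum day 8 replicate 3 or ileum day 8 replicate 4.

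Csf2rb (chromosome 15, 78156420 to 78181431), the common beta chain, stood at 2930, 3304 and 2172 normalized reads in the graft, and at 140, 282 and 354 in the colon on day 4. Later colonic libraries held 483, 347 and 186 on day 8 and 405, 922, 177 and 186 on day 12. Its log2 changes in the colon were -3.08 (SE 0.69, adjusted p = 0.000521), -2.82 (SE 0.68, adjusted p = 0.00113) and -2.43 (SE 0.60, adjusted p = 0.0013). In the ileum it held 786, 329, 691 and 1419 on day 4, 1762, 1517, 994 and 370 on day 8 and 3287, 849, 694 and 677 on day 12. Those log2 changes of -1.39 (SE 0.60, adjusted p = 0.0512), -0.78 (SE 0.59, adjusted p = 0.276) and -0.51 (SE 0.59, adjusted p = 0.483) did not pass, the first doing so with the replicate block (-1.56, adjusted p = 0.0237). The day 8 fall in the colon did not pass with colon day 8 replicate 1 included (-1.34, adjusted p = 0.128).

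Measured against the pan-leukocyte genes, Csf2rb rose in both segments and Csf2ra in the colon, so the direction of the 2 chains depended on the scale. Csf2rb went from 22.6 to 35.9 reads per 1000 in the graft to 65.0 to 130 in the colon (3.02-fold, exact permutation p = 0.0035, adjusted p = 0.0113) and 51.4 to 91.0 in the ileum (2.19-fold, exact permutation p = 0.0022, adjusted p = 0.0113). Csf2ra rose from 18.7 to 26 in the graft to 45.0 to 73.3 in the colon (2.55-fold, exact permutation p = 0.0035, adjusted p = 0.0113) but not detectably in the ileum (13.1 to 42.0, 1.34-fold, exact permutation p = 0.136). With the macrophage genes as denominator, Csf2ra in the colon was 0.696-fold the graft (exact permutation p = 0.0524) and in the ileum 0.393-fold (exact permutation p = 0.0022). On that scale Csf2rb was 0.826-fold the graft in the colon (exact permutation p = 0.248), and in the ileum it fell to 0.642-fold with no overlap (exact permutation p = 0.0044, adjusted p = 0.0142). Against Csf1r itself, both chains lost share in both segments. The ratio of Csf2ra to Csf1r fell to 0.368-fold in the colon and 0.234-fold in the ileum, and that of Csf2rb to 0.437-fold and 0.382-fold, with no overlap with the graft (exact permutation p = 0.0035 in the colon and 0.0022 in the ileum, adjusted p = 0.009 over 36 tests).

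Csf2ra differed between the segments by the leukocyte measure. Its 10 colonic libraries (45.0 to 73.3 per 1000) all exceeded its 12 ileal libraries (13.1 to 42.0), with a permutation p of 1e-05, the smallest that 100000 permutations can give, and an adjusted p of 0.00021. The permutations ignored day and experiment, so this p takes each library as independent, which the shared experiments do not ensure. Csf2rb was also higher in the colon by this measure, with overlap (65.0 to 130 against 51.4 to 91.0, 0.724-fold in the ileum, permutation p = 0.0012, adjusted p = 0.0113). Against the macrophage genes both differences passed with overlap, at 0.565-fold in the ileum for Csf2ra (permutation p = 0.00036, adjusted p = 0.00756) and 0.778-fold for Csf2rb (permutation p = 0.0227, adjusted p = 0.0415). Both were lower in the colon per library total, as given with the segment comparison. Lymphocyte markers, on the scale of the marker sums above, ran higher in the ileum, with overlap. T cell markers summed to 73.3 to 164 in the colon and to 101 to 1599 in the ileum. B cell markers summed to 30.4 to 83.8 in the colon and to 54.1 to 2055 in the ileum. The part of lymphocyte RNA in the pan-leukocyte denominator, and so in the segment differences by that measure, was not tested.

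Of 3 further chains that pair with the common beta chain or resemble it, 2 were tested, of which both fell in the colon and 1 in the ileum on day 4. Of all genes, 24.5% were lower in the colon and 20.5% in the ileum on that day. Il3ra, which binds interleukin 3, fell by 3.06 in the colon (SE 0.50, adjusted p = 1.44e-05) and changed by -1.47 in the ileum (SE 0.44, adjusted p = 0.00664) on day 4, on the log2 scale. Csf2rb2, a mouse duplicate of Csf2rb on the same chromosome, fell by 2.16 in the colon (SE 0.65, adjusted p = 0.00648), and its change of -1.20 in the ileum did not pass (adjusted p = 0.0899). The longest annotated transcripts of Csf2rb and Csf2rb2 were 93.5% identical over 4430 aligned bases, and 18.3% of the 50-base stretches of Csf2rb were also present in Csf2rb2, so levels of the pair are uncertain even though the authors kept uniquely mapped reads alone. None of the stretches in the last 500 bases of Csf2rb were shared. Il5ra had at most 1 read in any library. The ligands Csf2, with at most 8 reads, Il3, with 0 reads, Il5, with at most 3, and Csf3, with at most 9, fell below the level needed for a test in the libraries used.

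Csf3r, the G-CSF receptor (chromosome 4, 125701903 to 125722219, plus strand), fell in both segments on each day, to levels near the floor in the colon, where 2 libraries held 2 and 1 reads and the others 4 to 18. The graft held 716, 1058 and 705 normalized reads. The colon held 7.17, 5.93 and 20.3 on day 4, 33.8, 2.61 and 11.7 on day 8 and 23.4, 56.0, 12.2 and 19.8 on day 12. The ileum held 75.9, 29.9, 92.2 and 107 on day 4, 122, 97.8, 93.7 and 34.0 on day 8 and 206, 94.0, 41.6 and 75.4 on day 12. The graft overlapped neither segment. In the colon the log2 changes were -5.82 (SE 0.71, adjusted p = 2.46e-07), -5.53 (SE 0.69, adjusted p = 3.67e-07) and -4.65 (SE 0.57, adjusted p = 2.52e-07). In the ileum they were -3.1 (SE 0.55, adjusted p = 4.87e-05), -2.73 (SE 0.52, adjusted p = 0.000118) and -2.48 (SE 0.51, adjusted p = 0.000235).

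Per 1000 pan-leukocyte reads the fall of Csf3r was smaller. It went from 7.34 to 11.5 in the graft to 0.784 to 8.03 in the colon, which did not pass (0.535-fold, exact permutation p = 0.0874, adjusted p = 0.147), and to 3.86 to 8.05 in the ileum, which did (0.653-fold, exact permutation p = 0.011, adjusted p = 0.0263). Against the macrophage genes it fell to 0.146-fold in the colon and 0.191-fold in the ileum with no overlap (exact permutation p = 0.0035 and 0.0022, adjusted p = 0.0123 for both). Against Csf1r it fell to 0.0772-fold in the colon and 0.114-fold in the ileum, with no overlap (exact permutation p = 0.0035 and 0.0022, adjusted p = 0.009 for both). Neutrophil markers, 9 genes, summed to 12070 to 15090 in the graft and to 243 to 2637 in the engrafted CD11c-DTR libraries, and their part in the fall was not tested. The genes most like Csf3r over the 25 libraries were Rgs19 (r = 0.976), Rgs14 (r = 0.976) and Pira1 (r = 0.974).

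Flt3, the receptor of FLT3 ligand (chromosome 5, 148142317 to 148212065, minus strand), was detected in the graft and at or under the floor in every engrafted CD11c-DTR library. The graft held 101, 147 and 67.8 normalized reads. Engrafted libraries held 0 to 1.79 in the colon and 0 to 9.91 in the ileum, none with more than 3 counts. The graft was at least 14.7-fold to 17.7-fold higher than the colonic groups and at least 6.45-fold to 13.9-fold higher than the ileal groups. Its ligand gene, Flt3l, fell by 2.16 on the log2 scale in the colon on day 4 (SE 0.52, adjusted p = 0.00111), and its change in the ileum (-1.01, SE 0.48, adjusted p = 0.0779) did not pass. Among the genes most like Flt3 were Mmp8 (r = 0.990) and Cyp2ab1 (r = 0.986), over 25 libraries of which 22 were at the floor for Flt3.

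Kit, the stem cell factor receptor (chromosome 5, 75971012 to 76052746, plus strand), had 0 reads in all 3 graft libraries, which had been sorted as CD117-negative. The colon held 96.8, 88.9 and 61.0 normalized reads on day 4, 77.7, 102 and 85.4 on day 8 and 152, 115, 127 and 110 on day 12. The ileum held 39.6, 66.2, 36.9 and 49.9 on day 4, 29.8, 60.7, 87.0 and 61.2 on day 8 and 81.5, 52.6, 52.0 and 26.6 on day 12. Colonic groups were at least 11.5-fold to 17.6-fold higher than the graft and ileal groups at least 6.72-fold to 8.33-fold higher. Kitl, the ligand of KIT, also had 0 reads in the graft and was at least 28.9-fold to 46.8-fold higher in the 6 groups.

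The pattern of Kit was most like that of epithelial genes. Over the 25 libraries it was most like Fxyd3 (r = 0.927), Noxa1 (r = 0.925) and Gstm5 (r = 0.920). Among the 22 engrafted libraries alone, a view added after the values were seen, it was most like Spink4 (r = 0.880), Spdef (r = 0.865) and Creb3l4 (r = 0.853), of which Spdef encodes a transcription factor of goblet cells. Across those 22 libraries its r was 0.572 with the summed goblet cell markers, 0.494 with epithelial markers, 0.464 with mast cell markers, -0.574 with macrophage markers and -0.634 with pan-leukocyte genes. All of these points share library depth and composition. The 5 goblet markers found summed to 3.52 to 28.6 in the graft and to 12620 to 114900 in the engrafted CD11c-DTR libraries. Mast cell markers, 8 genes with Cpa3, Mcpt4 and Ms4a2 at 0 in every group, summed to at most 68.9 in the CD11c-DTR libraries and 270.3 in the Cx3cr1-DTR libraries. The part of epithelial and mast cell RNA in the Kit reads was not tested.

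**Figure D3:**
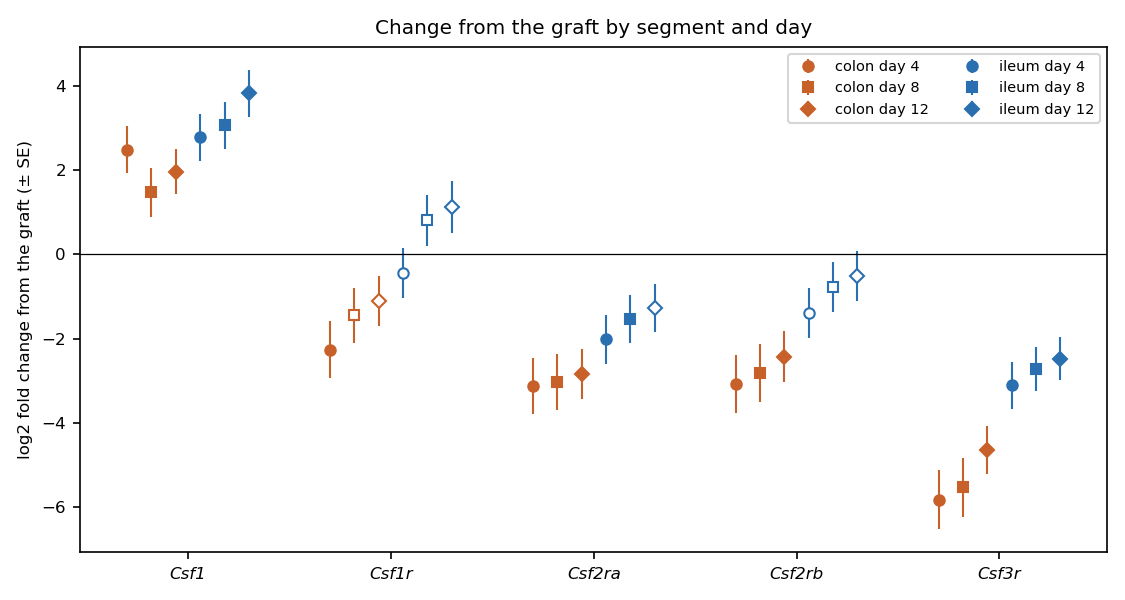
Log2 fold change from the graft, with its standard error, of Csf1, Csf1r, Csf2ra, Csf2rb and Csf3r; circles, squares and diamonds are days 4, 8 and 12, orange is colon, blue is ileum, and filled symbols passed an adjusted p under 0.05. Csf3r has the lowest point (-5.82 in the colon on day 4, from libraries with 2 to 10 reads), Csf1 rises in all 6 comparisons, Csf1r passes in the colon on day 4 alone with this TMM scaling, and Csf2ra and Csf2rb fall in the colon although both rise there per pan-leukocyte read.

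Between the segments, 1 of 7 genes passed on day 4, 4 on day 8 and 6 on day 12, where 3.18%, 35.0% and 32.5% of all genes were called in either direction. All calls but one were lower in the colon, where 2.66%, 18.3% and 17.2% of all genes were lower and 0.524%, 16.7% and 15.3% higher. On day 4 this was Csf3r (-2.71, SE 0.71, adjusted p = 0.0435), a call that was lost without any 1 of 11 libraries. On day 8 the log2 difference, colon over ileum, was -2.26 for Csf1r (SE 0.65, adjusted p = 0.00969), -2.04 for Csf2rb (adjusted p = 0.017), -2.81 for Csf3r (adjusted p = 0.00282) and -1.59 for Csf1 (adjusted p = 0.0166). Colon day 8 replicate 1, once included, left none of the 4 calls. Without colon day 8 replicate 4, Csf1r (-1.96, adjusted p = 0.0605), Csf2rb (-1.75, adjusted p = 0.0903) and Csf1 (-1.41, adjusted p = 0.0854) did not pass. The Csf2rb call was also lost without colon day 8 replicate 3 (-2.05, adjusted p = 0.054). That of Csf1 was lost with scaling to library totals (-1.29, adjusted p = 0.0529).

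On day 12 it was -2.23 for Csf1r (SE 0.58, adjusted p = 0.00539), -1.57 for Csf2ra (SE 0.55, adjusted p = 0.032), -1.92 for Csf2rb (SE 0.57, adjusted p = 0.0133), -2.18 for Csf3r (SE 0.54, adjusted p = 0.00407) and -1.86 for Csf1 (SE 0.43, adjusted p = 0.00267), and for each of the 5 genes 4 of 4 colonic libraries fell short of the mean of the ileum. Kit went the other way, higher by 1.13 (SE 0.33, adjusted p = 0.0116). Without ileum day 12 replicate 1, which held the highest Csf1r, Csf2ra, Csf2rb and Csf3r of that group, 3 of 7 passed, and Csf1r (-1.32, adjusted p = 0.0575), Csf2ra (-0.947, adjusted p = 0.205) and Csf2rb (-0.952, adjusted p = 0.169) did not. The Csf2ra call was also lost with library totals, with all 4 colon day 8 libraries, with the compared groups fitted alone and without colon day 12 replicate 1, 3 or 4 (-1.33 to -1.63, adjusted p = 0.0576 to 0.105). That of Csf2rb was lost without colon day 12 replicate 3 (-1.68, adjusted p = 0.0506) and that of Kit without ileum day 12 replicate 4 (0.911, adjusted p = 0.0505). With the replicate block 2 further differences passed, Csf1r on day 4 (-1.96, adjusted p = 0.0471) and Csf2ra on day 8 (-1.44, adjusted p = 0.0455). Without the 2 ileum day 4 libraries of experiment 1, 3 genes passed on day 4, Csf3r with Csf1r (-2.21, adjusted p = 0.0171) and Csf2rb (-2.10, adjusted p = 0.0306). Leukocyte genes differed in the same direction, as their sums above show, and their part was not tested beyond the ratios.

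**Figure D4:**
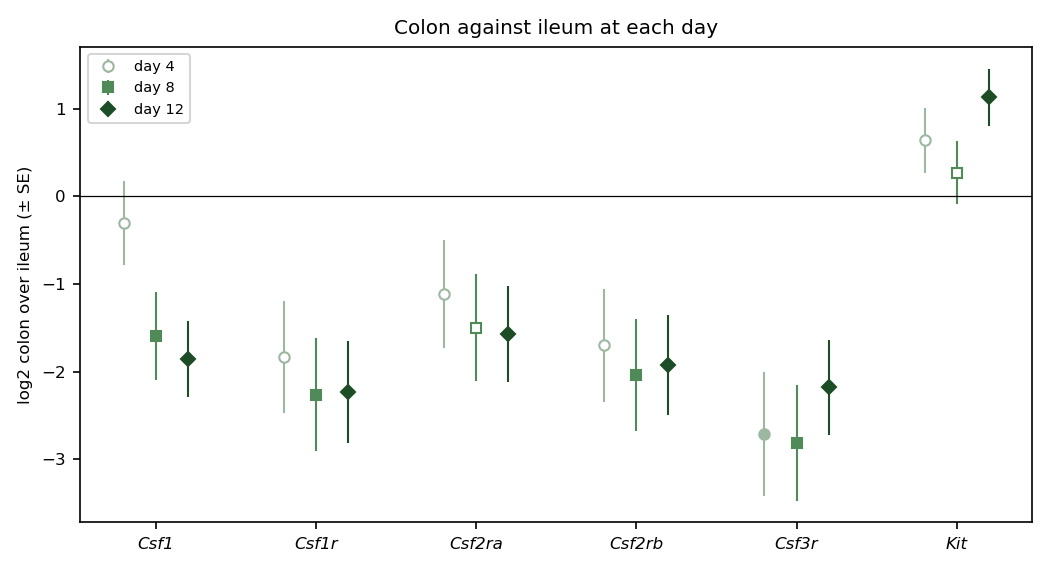
Log2 colon over ileum, with its standard error, on days 4 (circles), 8 (squares) and 12 (diamonds) for the 6 genes other than Flt3; filled symbols passed an adjusted p under 0.05. Csf1, Csf1r, Csf2ra, Csf2rb and Csf3r lie below 0 on each day, while Kit is above 0 and passes on day 12 at 1.13.

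With time in the tissue, no gene of the 7 passed between day 4 and day 12 in either segment. In the colon 0 of 11842 genes passed by edgeR (0.0%, with 245 at an unadjusted p under 0.05), and in the ileum 2.3% did. The largest change among the genes other than Flt3 was that of Csf1r in the ileum, from a mean of 2743 to 7667 normalized reads (log2 1.56, SE 0.57, adjusted p = 0.145). Its change in the colon, from 814 to 1840, was 1.16 (SE 0.62, adjusted p = 1). Csf1 went from 117 to 243 in the ileum (1.04, SE 0.44, adjusted p = 0.21) and from 106 to 74.3 in the colon (-0.52, SE 0.47). The test of a segment-by-time difference found none among the 7 nor among all 11842 genes (0.0%, 739 at an unadjusted p under 0.05). Kit on day 12 in the colon did not overlap day 8 or day 4, at 110 to 152 against 61.0 to 102. Csf1r on day 12 in the colon did not overlap day 4 either, at 1048 to 3942 against 475 to 996. How many of all genes fail to overlap in this way was not counted.

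The same 7 genes were measured in the colon of Cx3cr1-DTR recipients on day 14. Levels here are reads per 10000000 reads on genes, and sequencing run, recipient line and day cannot be told apart. The share of genes called against the graft was 75.4% of 11751, and all 7 members passed, with 5 lower and Csf1 and Kit higher (35.9% of all genes lower and 39.5% higher). Csf1r ranged from 983 through a median of 1661 to 2819, against 5821 to 8202 in the graft (log2 -1.71, SE 0.39, adjusted p = 0.00113). Per 1000 pan-leukocyte reads, however, it stood at 375 to 568, which was 8.25-fold above the graft (exact permutation p = 0.0119, adjusted p = 0.0263, the smallest p this design allows) and overlapped colon day 12. Per 1000 reads of the macrophage genes the rise was 1.53-fold, at 84.8 to 121 against 54.6 to 85.2 in the graft (exact permutation p = 0.0238, adjusted p = 0.0417). Csf3r ranged from 11.4 through 22 to 40.9 (log2 -5.49, SE 0.40, adjusted p = 1.71e-08) and Csf1 from 54.1 through 131 to 376 (log2 2.55, SE 0.67, adjusted p = 0.003). Csf2ra fell by 3.97 (SE 0.44) and Csf2rb by 5.42 (SE 0.45) on the log2 scale, with Csf2rb at 14.9 to 26.9 per 1000 pan-leukocyte reads against 22.6 to 35.9 in the graft (0.662-fold, exact permutation p = 0.0357, adjusted p = 0.0652). Csf2rb was 0.123-fold the graft against the macrophage genes (exact permutation p = 0.0119, adjusted p = 0.025) and 0.0803-fold against Csf1r (exact permutation p = 0.0119, adjusted p = 0.0186), with no overlap on either scale. Flt3 stood at 0 to 22.8 against 98.6 to 209, and Kit, at 0 in the graft, was at least 2.05-fold higher by its mean. Its counts by replicate were 0, 9, 2, 7, 19 and 2. Replicates 1, 3 and 6 thus lay under the floor of 3 counts, and replicate 1 overlapped the graft. Flt3 passed the filter of this fit only through the graft, so its difference from the graft was fixed in advance. Csf1, at 16.3 to 44.0 in the graft, passed it only through engrafted libraries, so its rise was favoured in advance.

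Against CD11c-DTR colon day 12, 4 of 7 passed, where 60.8% of all genes did. The log2 difference of Csf2rb was -3.18 (SE 0.42, adjusted p = 1.56e-05), with 45.5 to 106 reads against 315 to 1565. That of Csf2ra was -1.33 (SE 0.42, adjusted p = 0.0126), with 89.9 to 237 against 174 to 904, a call lost without colon day 12 replicate 2. That of Kit was -3.14 (SE 0.44, adjusted p = 5.38e-05), with 0 to 45.0 against 196 to 226. Kit passed the filter of this fit only through colon day 12, so it had to differ here. Flt3, at 0 in all 4 day 12 libraries, passed as higher at 0 to 22.8, from at most 5 reads in any library. Its mean of 11.7 lay under the mean floor of its own group, 14.6, so no fold is given. Csf1r (-0.81, SE 0.37, adjusted p = 0.0714), Csf3r (-1.01, SE 0.44, adjusted p = 0.0599) and Csf1 (0.41, SE 0.52, adjusted p = 0.511) did not pass.

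Genes outside the list, chosen after their values were seen, also stood at different levels in these libraries. Csf2rb2 stood at a mean of 4.68 against 228 in colon day 12, Kitl at 20.3 against 570 and the pan-leukocyte gene Ptprc, which encodes CD45, at 21.5 against 673, while Il34 stood at 199 against 56.2. Laptm5, another pan-leukocyte gene, stood at 1159 against 1413. The part of the separate table and run in the Csf2rb and Kit differences was not tested.

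Downstream of the receptors, genes that carry the signal mostly fell with TMM scaling, though at the median by less than the pan-leukocyte genes. Of 20 signal transducers, 13 fell and 1 rose in the colon on day 4 (median log2 change -1.58, against 0.206 for all genes), and 12 fell and 2 rose in the ileum (median -1.35, against 0.228). Of all genes, 24.5% were lower and 35.9% higher in the colon on that day, and 20.5% and 36.2% in the ileum. The 10 pan-leukocyte genes had median log2 changes of -4.27 in the colon and -2.09 in the ileum on day 4. Ratios to them were not computed for this list or the later ones. Plcg2, a phospholipase C, fell by 4.68 in the colon (SE 0.58, adjusted p = 3.22e-07), and Tyk2, a Janus kinase, changed by -2.29 in the colon (SE 0.31) and -2.05 in the ileum (SE 0.29). Akt1, a kinase of the survival pathway, fell by 1.37 in the ileum (SE 0.20). Of 12 negative regulators, 3 rose and 5 fell in the colon (median -1.08) and 3 rose and 4 fell in the ileum (median -0.264), to be read against the same shares of all genes. Socs2, a target and brake of cytokine signalling, had at most 3 reads in each graft library and was at least 45.9-fold to 107-fold higher in the 6 groups. Socs3 rose by 2.98 in the ileum (SE 0.33, adjusted p = 8.02e-08), and Sh2b3, an adaptor that restrains Janus kinase signalling, fell by 3.17 in the colon on the log2 scale (SE 0.33, adjusted p = 2.37e-08).

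Of 8 transcription regulators of the myeloid lineage, 3 rose and 4 fell in the colon and 4 rose and 3 fell in the ileum on day 4, with median log2 changes of -0.287 and 1.21, where 35.9% of all genes rose and 24.5% fell in the colon and 36.2% and 20.5% in the ileum. Ets2 rose by 4.56 in the colon and 4.64 in the ileum (SE 0.35 in both), and Egr1, an immediate early gene, rose by 7.84 (SE 0.64) and 8.30 (SE 0.65), from a graft mean of 18.8 to 3400 and 4220 normalized reads. The part of tissue digestion in these rises was not tested. Spi1 fell by 3.81 in the colon (SE 0.68, adjusted p = 4.56e-05) and changed by -2.0 in the ileum (SE 0.58, adjusted p = 0.00485). It was among the genes most like Csf2rb over the 25 libraries (r = 0.975), with Evl (r = 0.975), and first among the 22 engrafted ones (r = 0.980). The genes most like Csf1r were Slc15a3 (r = 0.969), Cd300c2 (r = 0.957) and H2-DMa (r = 0.949), the last part of the MHC class II pathway. Those most like Csf2ra were Itgam (r = 0.972), which encodes CD11b, Ms4a6c (r = 0.971) and Evi2a (r = 0.969).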

How the data were processed

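The deposited tables hold read counts per gene, summed over exons. Per the labels and the submitters' processing notes, the authors demultiplexed with bcl2fastq, aligned reads to mm9 with HISAT 0.1.6 and counted with HOMER. Per the study's methods, the authors kept uniquely mapped reads alone and counted them by strand. The HOMER version and the rule for reads on overlapping genes are not given in the sources used here. The second table holds 52 further columns of values that match no sample and were not used. Of 32 deposited libraries 31 were used. One colon day 8 library matched the study's own normalized values, within 0.01 on the log2 scale, in 4.18% of 1412 genes (25 others in 99.9% to 100.0%) and served as an alternative only. No pair of libraries within a group agreed within sampling noise (51 pairs, smallest chi-square per degree of freedom 4.73).

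Counts were tested with edgeR 4.0.16 (R 4.3.3, TMM scaling, quasi-likelihood test, Benjamini-Hochberg adjustment) over the genes that 3 or more libraries held at 50 normalized reads or above, in 1 fit for the 25 CD11c-DTR libraries and 1 for the graft, colon day 12 and the Cx3cr1-DTR libraries. The scripts were tested on simulated data. Ratios within a library used raw counts plus 0.5 on the log2 scale, with exact permutation tests, or 100000 permutations for 10 against 12 libraries, and adjustment within each denominator (42, 42 and 36 tests). The permutations were not restricted by day or experiment. Bounds used a floor of 3 counts per library. The replicate block was the experiment, 3 in all, inferred from the dates in the titles, which do not name a transfer. The year in the title of ileum day 8 replicate 2 was taken as a misprint and read as the next year. Deviations of libraries of 1 experiment had a median r of 0.0204 (96 pairs), against -0.0089 between experiments (171 pairs). Alternatives were DESeq2 1.42.0 and its size factors, library totals, other filters, single fits, the block and leaving out each library. The genes named are the 7, their ligands, Il3ra and Csf2rb2, the 2 members of each pathway list with the smallest adjusted p on day 4 in either segment, and the 3 genes most like each of the 7, of which some are not reported here. Members and lists were chosen with earlier results of these data known.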

Additional observations from a re-analysis of the deposited data

Results flagged for a closer look

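In 37 tests, each of 1 gene in 1 group of 4 or more libraries, 8 found a single value far from the others. The gap to the nearest value was compared with the range, on normalized reads without a log scale. How many such values chance would give is not known, since unlogged reads are skewed and genes of 1 library vary together. The 8 values fell on 3 libraries. In colon day 8 replicate 1, the library left out of the main values, Csf1r stood at 12829 normalized reads (815 to 2529 in the other 3), Csf2rb at 2100 (186 to 483) and Csf3r at 248 (2.61 to 33.8). In colon day 12 replicate 2, Csf1r stood at 3942 (1048 to 1207 in the others) and Csf2ra at 532 (97.5 to 158). In ileum day 12 replicate 1, Csf1r stood at 17974 (3725 to 4600), Csf2ra at 1164 (350 to 445) and Csf2rb at 3287 (677 to 849). Per 1000 pan-leukocyte reads, Csf1r in these 3 libraries was 570, 542 and 498, against 400 to 420, 372 to 490 and 262 to 413 in the others of their groups.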

How the results depend on the processing

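Fold changes of the 7 genes gave 2790 values under the alternatives, of which 2673 kept direction and side of the threshold, 47 lost the call, 56 gained it and 14 changed sign. The number of the 7 called moved by over 1.5 times in these cases. With a minimum of 200 normalized reads, 3, 3 and 2 genes were called from graft to ileum on days 4, 8 and 12 and 4 from graft to Cx3cr1-DTR colon, since fewer members were tested. Between ileum and colon on day 4 the count of 1 became 0 with library totals, 2 with the DESeq2 Wald test, 2 with the replicate block, 0 with all 4 colon day 8 libraries, 3 with ileum day 4 of experiment 2 alone and 0 with the compared groups fitted alone, and on day 8 it became 0 with all 4 colon day 8 libraries. The cause was not tested. Leaving out 1 library gave 3 to 5 calls from graft to ileum on day 8 (lowest without graft replicate 1), 0 to 1 from ileum day 4 to day 12 (highest, for Csf1, without ileum day 4 replicate 1), and, between ileum and colon, 0 to 3 on day 4, 1 to 5 on day 8 (lowest without colon day 8 replicate 4) and 3 to 6 on day 12 (lowest without ileum day 12 replicate 1).

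Signs changed for Csf1r from graft to colon day 8 with all 4 libraries (0.365) and for the segment-by-time difference of Csf2rb with ileum day 4 of experiment 2 alone (0.176). Leaving out 1 library, the log2 change from day 4 to day 12 ranged in the colon from -0.521 to 0.525 for Csf2ra and from -0.0668 to 0.92 for Csf2rb, and in the ileum from -0.0934 to 1.22 for Csf2rb and from -0.227 to 0.353 for Kit. That between ileum and colon on day 4 ranged from -0.588 to 0.544 for Csf1, and the segment-by-time difference from -1.07 to 0.505 for Csf1r, from -1.27 to 0.156 for Csf2ra and from -0.942 to 0.743 for Csf2rb. None of these passed in the main values. The direction of the Csf1r share of pan-leukocyte reads and its side of the threshold held with the macrophage genes and without any 1 of the 10 genes as denominator. Low depth limits Flt3, Kit and Csf3r most, since 1 read equals 1.17 to 9.22 normalized reads.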
